A study of Mus musculus with 18 samples.

Results

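CD8 T cells and dendritic cells sorted from the same kind of tumour were compared under 1 treatment, the antibody anti-PD-1 given together with D18. The comparison rests on 6 libraries of the 18 in the series, 3 of the CD8 T sort and 3 of the dendritic sort, chosen by the sort and treatment in their labels. All tumours were MC38, a mouse colon carcinoma line, grown under the skin of the flank of C57BL/6 females that were 6 weeks old at injection. Mice of both sorts received 200 µg of anti-PD-1 antibody 2 times per week and 25 µg of D18 1 time per week for 2 weeks, from a mean tumour size of 100 mm3, reached 7 to 10 days after injection. D18 is known here by its code name, and no library came from an untreated tumour. Another 6 libraries of the same sorts, from mice given anti-PD-1 without D18, serve as the reference for the treatment. Mice were randomised from 1 pool, and no label says whether replicates were separate mice, so a p-value covers only the spread of these libraries, which may be technical. Values of the 3 libraries of a sort are given in the order of replicates 1, 2 and 3.

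As background, a CD8 T cell recognises peptides on MHC class I through its T cell receptor, which signals through the CD3 chains and is helped by the CD8 coreceptor. It kills with perforin and granzymes stored in granules and secretes interferon gamma. A dendritic cell takes up antigen, cuts it with lysosomal proteases and presents it on MHC class II to helper T cells. In tumours, macrophages share the class II and lysosomal genes with dendritic cells, and are told apart by complement C1q, Apoe, Lyz2 and Fc receptor genes on one side and by Flt3, Zbtb46 and Xcr1 on the other.

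Reads assigned to genes numbered 55823, 266392 and 77993 in the CD8 T libraries and 190641, 11170 and 169296 in the dendritic libraries. A gene with 0 reads may hold up to 3, a limit that ranges from 11.3 CPM (a gene's reads scaled to a library total of 1000000) in CD8 T replicate 2 to 269 CPM in dendritic replicate 2. Reads without molecular identifiers are not independent molecules, so such limits and all counting intervals cover counting error only. Mitochondrial genes, ribosomal RNA included, took 8.34%, 5.43% and 25.1% of the reads in the CD8 T libraries, against 32.5%, 14.4% and 19.3% in the dendritic libraries. Fewer cells of a type and less RNA per cell cannot be told apart in bulk libraries such as these.

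The T cell marker Cd8a separated the sorts in the libraries numbered 1 and 2 and did not in those numbered 3, where Gzma differed far less than in the others. Cd8a, the alpha chain of the CD8 coreceptor, had 58, 585 and 28 reads in the CD8 T libraries, against 3, 0 and 87 in the dendritic libraries. Gzma, which encodes granzyme A, had 17, 350 and 28 reads in the CD8 T libraries and 0, 0 and 44 in the dendritic libraries. Its groups did not overlap, and the nearest libraries were CD8 T replicate 1, at 305 CPM, and CD8 T replicate 3, at 359 CPM, against dendritic replicate 3, at 260 CPM. H2-Aa, the alpha chain of the class II molecule I-A, had 8, 349 and 120 reads in the CD8 T libraries and 391, 11 and 289 in the dendritic libraries. CD8 T replicate 3, at 359 CPM of Cd8a, therefore lay below dendritic replicate 3, at 514 CPM, and CD8 T replicate 2 held H2-Aa at 1310 CPM, between the 985 CPM of dendritic replicate 2 and the 2051 CPM of dendritic replicate 1. The labels are kept as given, and the libraries labelled CD8 T replicate 3 and dendritic replicate 3 carry this doubt wherever a direction is drawn below.

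Both libraries numbered 3 resembled each other across the genome. Among 1062 genes with a mean of at least 10 normalised reads (reads divided by a size factor for depth), 28 (2.64%) differed more than 2-fold between CD8 T replicate 3 and dendritic replicate 3, on log2(CPM + 50). The same count was 603 (56.8%) between CD8 T replicate 1 and dendritic replicate 1 and 572 (53.9%) between CD8 T replicate 2 and dendritic replicate 1. Reads of both libraries numbered 3 scattered 2.37 times as much as counting error alone, by the chi-square of reads per gene divided by its 1651 genes. CD4 T replicate 3 of the same treatment scattered 1.90 times as much against CD8 T replicate 3 and 1.27 times against dendritic replicate 3. Over the other 33 pairs of the 9 D18 libraries this index ran from 5.76 to 40.3. Across 322 genes with a mean of at least 30, the correlation between CD8 T replicate 3 and dendritic replicate 3 was 0.956, as a description. Amplified reads scatter beyond counting error within 1 pool of cells too, so the index does not tell whether these libraries came from separate cells. The labels name them as separate samples, and each was kept as 1 replicate of its sort.

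**Figure D1:**
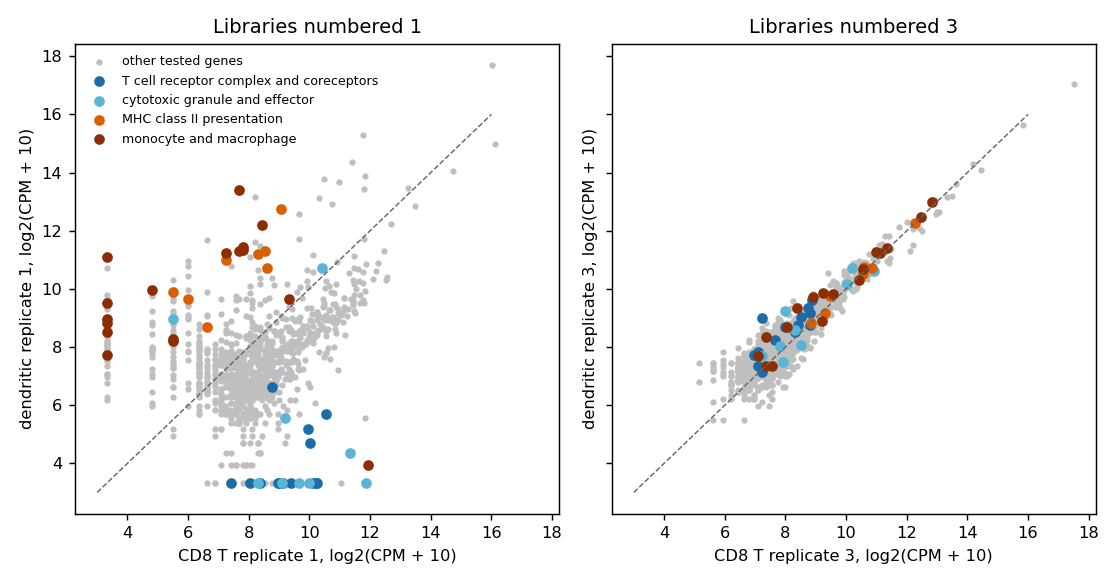
Each point is a tested gene, at its log2(CPM + 10) in the CD8 T library (x axis) and the dendritic library (y axis) of the same number, with 4 gene lists coloured and a dashed line of equal level. In the libraries numbered 1 most T cell and cytotoxic genes lie below the line and most macrophage and class II genes above it, while in those numbered 3 all lists lie along it and 28 of 1062 genes differ more than 2-fold.

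Tested over all 6 libraries, the sorts differed widely in fold, but no gene's difference exceeded the spread between libraries by the test. With limma on log2(normalised reads + 1), 0 of 1062 genes (0%) passed an adjusted p of 0.05, and the smallest adjusted p was 0.655. At an unadjusted p under 0.05 there were 51 genes, 40 of them higher and 11 lower in the CD8 T sort, and limma-voom with quality weights also called 0. Its 72 genes at an unadjusted p under 0.05 split the other way, with 13 higher and 59 lower in the CD8 T sort. Every CD8 T library was above every dendritic library for 110 genes (10.4%) and below for 14 (1.32%). The median log2 change of all tested genes, CD8 T minus dendritic, was 0.72, with 0.55 to 0.87 under other scalings and 0.14 by limma-voom, and the list medians below stand beside that value. It became −0.11 without dendritic replicate 2, the library of 11170 reads. Of the 1062 genes 791 were higher and 271 lower in the CD8 T sort, and the members counted as higher in each list below are to be read against that split.

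Leaving out both libraries numbered 3 gave a different count. With 2 libraries per sort, limma called 13 of 940 genes, 10 higher (1.06%) and 3 lower (0.319%) in the CD8 T sort. The 10 were Cd3g, Cd8a, Cd8b1 and Trac of the T cell receptor complex, Gzmb, Nkg7 and Ctsw of cytotoxic cells, the chemokine gene Ccl5, and Ms4a4b and Ly6c2, surface protein genes of activated T cells. The 3 lower genes were Gm10800, Gm10801 and Gm21738, which are gene models built on repeats. The libraries were left out because lineage genes looked alike in them, so these counts describe the remaining 4 libraries and are no independent evidence. The same holds for every change, adjusted p and passing member given below without the libraries numbered 3. Without dendritic replicate 3 alone 18 of 909 genes (1.98%) passed, all higher in CD8 T. They added Gzma, Cd3d, Cd3e, Trbc2, Ctla2a, Cxcr6, Gimap4 and Il2rb to the 10. Without CD8 T replicate 3 alone 3 of 1143 (0.262%) passed, the same 3 repeat models, all lower.

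**Figure D2:**
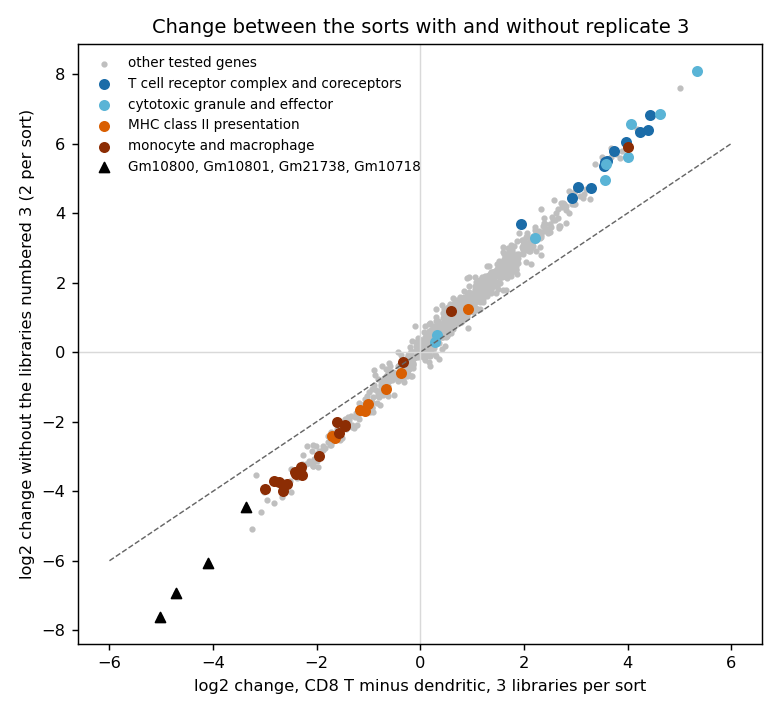
Each point is a gene tested in both fits, with its log2 change (CD8 T minus dendritic) over 3 libraries per sort on the x axis and over 2 per sort, without those numbered 3, on the y axis. Of 926 genes, 850 keep their sign and lie farther from 0 without the libraries numbered 3 than the dashed line of equal change, up to 8.08 for Nkg7 and down to −7.60 for Gm10800.

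Genes of the T cell receptor complex were higher in the CD8 T sort in all 14 tested members of 16, with a median log2 change of 3.55 and 0 passing the test over 6 libraries (0% of all genes did). That median was 1.88 by limma-voom and 2.81 without dendritic replicate 2, beside 0.14 and −0.11 for all genes. Without the libraries numbered 3 the median was 5.49 over 12 members, of which 4 passed, where 10 of 940 genes (1.06%) passed as higher. The summed level of the list was 10480, 13277 and 3911 CPM in the CD8 T libraries, against 178, 269 and 5700 CPM in the dendritic libraries. Cd3e, the epsilon chain of CD3, had 37, 209 and 19 reads in the CD8 T libraries and 0, 0 and 69 in the dendritic libraries. Over the libraries numbered 1 and 2, its pooled reads were at least 51.4-fold higher in CD8 T, against a floor of 3 reads over the dendritic pair. Cd3g, the gamma chain, had 68, 485 and 36 reads in the CD8 T libraries and 0, 0 and 130 in the dendritic libraries. Its log2 change of 4.42 ± 1.47 (SE, n = 3 per sort) had an adjusted p of 0.655 by limma. Without the libraries numbered 3 the change was 6.81 (adjusted p = 0.00528 by limma), which is no independent evidence, since lineage genes guided that omission.

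Cd8a averaged 1198 ± 929 CPM in CD8 T libraries and 177 ± 292 CPM in dendritic libraries (SD, n = 3 each). The groups overlapped through the libraries numbered 3, and the log2 change was 3.97 ± 1.30 (adjusted p = 0.655 by limma). Over the libraries numbered 1 and 2, pooled Cd8a reads were 134-fold higher in CD8 T, with a 95% counting interval from 45.7 to 653. Trbc2, a constant region of the T cell receptor beta chain, had 61, 303 and 34 reads in the CD8 T libraries, against 0, 0 and 72 in the dendritic libraries. It was 1 of 2 members, with Cd6, of the 14 tested whose CD8 T libraries all lay above the dendritic ones. Among all 1062 tested genes 110 (10.4%) did so. Cd4, the helper coreceptor, had 0, 0 and 1 reads in the CD8 T libraries and 0, 0 and 5 in the dendritic libraries.

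Signalling molecules next to the receptor lay on the same side. All 9 tested members of 18 were higher in CD8 T, with a median of 1.87, and 0 passed. Lck, the kinase that phosphorylates the CD3 chains, had 27, 225 and 24 reads in the CD8 T libraries against 0, 1 and 61 in the dendritic libraries (2.93 ± 1.15). Lat, the adaptor on which the signal branches, had 24, 259 and 17 reads in the CD8 T libraries and 0, 0 and 56 in the dendritic libraries (3.68 ± 1.33). Both had 0 reads in dendritic replicate 1 and reads in replicate 3.

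The cytotoxic programme showed the steepest single difference among lineage genes. All 9 tested members of 19 were higher in the CD8 T sort, with a median of 3.57 over 6 libraries and 5.40 without the libraries numbered 3, where 3 passed beside the 1.06% of all genes. By limma-voom the median was 2.29, and without dendritic replicate 2 it was 3.04 over 11 members. Nkg7, a protein of cytotoxic granule membranes, had 209, 927 and 91 reads in the CD8 T libraries and 0, 0 and 285 in the dendritic libraries. Over the libraries numbered 1 and 2 it was at least 237-fold higher in CD8 T. Gzmb, which encodes granzyme B, averaged 1898 ± 800 CPM in CD8 T libraries and 380 ± 648 CPM in dendritic libraries (SD, n = 3 each), with a log2 change of 4.62 ± 1.46. Its normalised CD8 T levels all lay above the dendritic ones, although by CPM dendritic replicate 3 (1128) exceeded CD8 T replicate 3 (1026).

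Gzma averaged 659 ± 568 CPM in CD8 T libraries and 86.6 ± 150 CPM in dendritic libraries (SD, n = 3 each). Its log2 change of 4.004 ± 1.28 had an adjusted p of 0.655 by limma, and without the libraries numbered 3 it was 5.60 (adjusted p = 0.182 by limma). Gzmk, another granzyme gene, had 30, 151 and 11 reads in the CD8 T libraries and 0, 0 and 33 in the dendritic libraries (3.57 ± 1.35). Ifng, which encodes interferon gamma, had 44, 54 and 18 reads in the CD8 T libraries and 0, 0 and 29 in the dendritic libraries (3.56 ± 1.37). Every CD8 T library lay above every dendritic one, and the level was highest in CD8 T replicate 1, at 788 CPM. Perforin itself, encoded by Prf1, was too low to test, with 6, 76 and 2 reads in CD8 T libraries against 0, 0 and 17 in dendritic libraries. Srgn and Lamp1, granule components that myeloid cells also make, had changes of 0.29 and 0.32, below the median of all genes.

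Surface proteins and receptors of activated T cells followed. In the list of Ms4a, Ly6 and related genes all 14 tested members of 16 were higher, with a median of 2.59. That median was 1.37 by limma-voom and 1.31 without dendritic replicate 2. Ms4a4b had 117, 843 and 63 reads in the CD8 T libraries and 0, 0 and 197 in the dendritic libraries (5.01 ± 1.58, and 7.59 without the libraries numbered 3). Ly6c2 had 219, 661 and 107 reads in the CD8 T libraries and 1, 2 and 212 in the dendritic libraries (4.01 ± 1.32), with every CD8 T library above. This gene is also in the monocyte and macrophage list, where it and Ctsd (0.58) were the 2 tested members higher in CD8 T. Cxcr6, a chemokine receptor of T cells resident in tissue, had 40, 477 and 21 reads in the CD8 T libraries and 0, 0 and 73 in the dendritic libraries (4.18 ± 1.36). Il2rb, a receptor chain for interleukins 2 and 15, had 29, 309 and 17 reads in the CD8 T libraries and 0, 0 and 80 in the dendritic libraries (3.68 ± 1.38). For Cxcr6 and Il2rb dendritic replicate 3 exceeded CD8 T replicate 3 in CPM.

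Pdcd1, which encodes the receptor blocked by the antibody, had 6, 126 and 5 reads in the CD8 T libraries and 0, 0 and 16 in the dendritic libraries. Its log2 change was 2.73 ± 1.53, and 126 of its 137 CD8 T reads came from replicate 2. Of the 13 inhibitory receptor and exhaustion genes 4 were tested, all higher in CD8 T (median 1.99). That median was 0.79 by limma-voom and 1.01 without dendritic replicate 2. Among these 4 genes Lag3 was at 2.61 ± 1.42 and Havcr2 at 1.36 ± 1.36. None passed by limma, and 0 had an unadjusted p under 0.05.

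**Figure D3:**
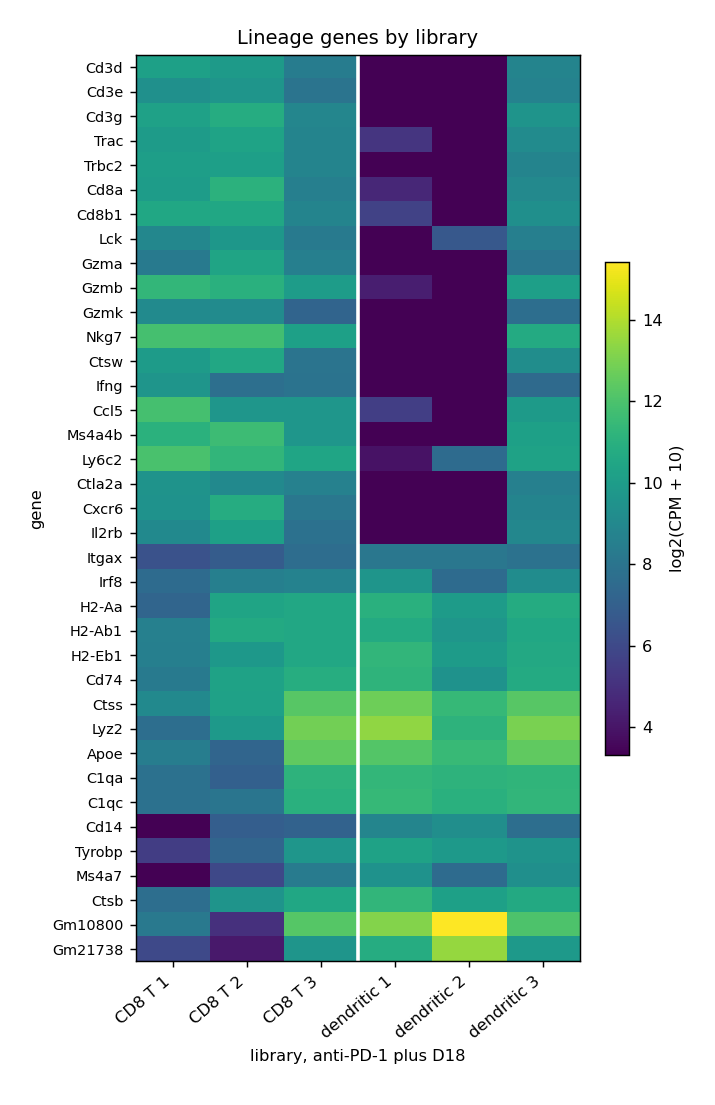
Colour gives log2(CPM + 10) of 37 genes (rows) in the 6 libraries (columns, CD8 T left of the white line and dendritic right of it), with the darkest colour at 0 reads. T cell and cytotoxic genes are mostly dark in dendritic replicates 1 and 2 and not in replicate 3, and Lyz2, Apoe and the C1q genes are high in CD8 T replicate 3.

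Most class II genes measured lower in the CD8 T sort, and none passed the test. Of 15 members 8 were tested, 7 lower and 1 higher in CD8 T, with a median log2 change of −1.05, and 0 passed. The summed level was 1917, 7279 and 13270 CPM in the CD8 T libraries and 17950, 7610 and 13462 CPM in the dendritic libraries. H2-Aa averaged 997 ± 748 CPM in CD8 T libraries and 1581 ± 544 CPM in dendritic libraries (SD, n = 3 each), with a log2 change of −1.17 ± 1.10. Over the libraries numbered 1 and 2 pooled H2-Aa reads were 1.80-fold higher in the dendritic sort, with a counting interval from 1.56 to 2.08. Those reads came mostly from CD8 T replicate 2 and dendritic replicate 1. Dendritic replicate 2, at 985 CPM, lay below CD8 T replicate 2, at 1310 CPM, so the interval does not show that the libraries agree. H2-Eb1, the beta chain of I-E, had 20, 229 and 117 reads in the CD8 T libraries and 475, 11 and 268 in the dendritic libraries (−1.02 ± 0.98). For H2-Ab1, the beta chain of I-A, the change was −0.37 ± 0.97, with 432 reads in CD8 T replicate 2. Cd74, the invariant chain that holds class II molecules until they reach the lysosome, was at −0.67 ± 1.06, and Ctss, the protease that trims it, at −1.64 ± 1.13. Without CD8 T replicate 1, the changes of H2-Aa, H2-Ab1 and Cd74 turned positive, and without dendritic replicate 1 those of H2-Ab1 and Cd74 did.

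Class II genes share promoter boxes, among them the Y box, a CCAAT element read on either strand that the factor NF-Y binds. Of the 15 class II presentation genes listed, 11 had a promoter in the table used (13 promoters), and the letters CTGATTGG were in 4, H2-Aa, H2-Eb1, H2-Eb2 and H2-Oa. The other 7 lacked them, among them Ctss and Lgmn, which were also lower in CD8 T. H2-Eb2 had 0 reads in all 6 libraries and H2-Oa at most 1 in a library, so H2-Aa and H2-Eb1 are shown as the 2 tested genes with the letters. They run 250 bases before to 50 after the start of each gene, from RefSeq on GRCm38.p6, with capitals marking these letters, which were searched on both strands and lie on the gene's strand in both. H2-Aa lies at chr17:34287774-34288073 on the minus strand and H2-Eb1 at chr17:34305617-34305916 on the plus strand.
H2-Aa: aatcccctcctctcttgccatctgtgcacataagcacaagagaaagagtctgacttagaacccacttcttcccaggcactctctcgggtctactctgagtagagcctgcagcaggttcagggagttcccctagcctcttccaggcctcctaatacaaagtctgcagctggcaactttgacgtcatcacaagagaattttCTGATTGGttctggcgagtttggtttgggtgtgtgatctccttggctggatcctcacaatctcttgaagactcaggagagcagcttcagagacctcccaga
H2-Eb1: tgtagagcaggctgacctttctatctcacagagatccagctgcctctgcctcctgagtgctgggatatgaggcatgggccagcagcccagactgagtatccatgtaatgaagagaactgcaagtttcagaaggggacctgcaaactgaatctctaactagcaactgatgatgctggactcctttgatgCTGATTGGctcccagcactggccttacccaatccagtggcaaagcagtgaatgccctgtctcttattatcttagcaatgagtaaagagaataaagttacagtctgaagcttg
The letters begin 51 bases before the start in H2-Aa and 62 before it in H2-Eb1. Of 27025 promoters of this length, 4.31% held them on either strand, and 37.9% held their last 5 letters, ATTGG, which are CCAAT read on the other strand. Among the class II genes without the full letters, H2-DMb1, H2-DMb2, H2-Ob and a promoter each of H2-DMa and Lgmn held those 5. Ctss and Ifi30 did not. A match is a description of these letters and not a measured site.

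The dendritic libraries held many reads of macrophage genes and fewer of dendritic cell genes. The list of 22 monocyte and macrophage markers summed to 6144, 7932 and 26554 CPM in the CD8 T libraries and to 32831, 14145 and 29711 CPM in the dendritic libraries. Of its 17 tested members 15 were lower in the CD8 T sort, and the median was −2.28 (−3.30 without the libraries numbered 3). Flt3, the cytokine receptor that dendritic cells depend on, had 0, 0 and 2 reads in the CD8 T libraries against 13, 1 and 3 in the dendritic libraries. Over the libraries numbered 1 and 2 it was at least 7.45-fold higher in the dendritic sort, mostly from the 13 reads of dendritic replicate 1. It was too low to test, and in the libraries numbered 3 it stood at 25.6 CPM in CD8 T and 17.7 CPM in dendritic. Zbtb46, a transcription factor of classical dendritic cells, had 1, 2 and 0 reads in the CD8 T libraries and 2, 0 and 2 in the dendritic libraries. Xcr1, a chemokine receptor of type 1 dendritic cells, had 0, 4 and 0 reads in the CD8 T libraries and 0, 0 and 2 in the dendritic libraries. The common dendritic list, with reads for 11 members, summed to 9, 69 and 29 reads in the CD8 T libraries and 101, 10 and 63 in the dendritic libraries. The type 2 dendritic list, with reads for 9 of 11, summed to 6, 34 and 28 reads in the CD8 T libraries and 74, 4 and 66 in the dendritic libraries. Much of it was Sirpa and Clec12a, which macrophages and monocytes also express, and Mgl2 and Clec4a4 had 0 reads in all 6 libraries.

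Genes of migrating, mature dendritic cells had reads for 8 of 12, summing to 41, 213 and 30 in the CD8 T libraries and 29, 8 and 105 in the dendritic libraries. Tnfrsf9, an activation receptor that T cells also express, gave 30, 155 and 15 of these reads in the CD8 T libraries and 0, 0 and 71 in the dendritic libraries. The 29 and 8 reads of dendritic replicates 1 and 2 were thus all of other members. Ccl22, Ccl17, Fscn1 and Il12b of this list had 0 reads in all 6 libraries. Zbtb46 and Xcr1 were thus at or near 0 in the dendritic libraries, while Flt3 and the type 1 genes below had reads there, most of them in dendritic replicate 1.

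Some genes of type 1 dendritic cells were present at low depth. Their list of 13 summed to 287, 533 and 1141 CPM in the CD8 T libraries and 2245, 627 and 1175 CPM in the dendritic libraries. Dendritic replicate 1 held 9 reads of the antigen receptor gene Clec9a, 12 of the transcription factor gene Batf3 and 46 of Wdfy4, a gene needed for cross-presentation. CD8 T replicate 1 held 0 of each, but it had 55823 reads against 190641, so such a gene may lie at up to 53.7 CPM there. In reads the list summed to 16, 142 and 89 in the CD8 T libraries and 428, 7 and 199 in the dendritic libraries. Many of these reads were of its 2 tested members, Ppt1 and Irf8. Ppt1 gave 5, 11 and 18 in the CD8 T libraries and 104, 3 and 42 in the dendritic libraries. Irf8 gave 10, 98 and 31 in the CD8 T libraries and 149, 2 and 97 in the dendritic libraries. Itgax, which encodes the integrin CD11c, had 4, 28 and 15 reads in the CD8 T libraries and 52, 3 and 38 in the dendritic libraries (−1.09 ± 0.78). Irf8, a factor of type 1 dendritic cells that activated T cells and monocytes also express, had a change of −0.55 ± 0.96 and turned positive without dendritic replicate 1.

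Lyz2, which encodes lysozyme, had 11, 241 and 567 reads in the CD8 T libraries and 2068, 25 and 1390 in the dendritic libraries. Its log2 change was −2.40 ± 1.42, with 7270 CPM in CD8 T replicate 3 against 197 and 905 CPM in replicates 1 and 2. Apoe, a lipid carrier made by tumour macrophages, had 19, 38 and 444 reads in the CD8 T libraries and 894, 32 and 960 in the dendritic libraries (−2.66 ± 1.36). Over the libraries numbered 1 and 2 its pooled reads were 25.9-fold higher in the dendritic sort, with a counting interval from 19.8 to 34.5. CD8 T replicate 3, at 5693 CPM, was level with dendritic replicate 3, at 5671 CPM. C1qa, a chain of the complement component C1q, averaged 855 ± 1192 CPM in CD8 T libraries and 2404 ± 169 CPM in dendritic libraries (SD, n = 3 each). Its change of −2.57 ± 1.15 had an adjusted p of 0.655 by limma.

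Receptors and digestive enzymes of phagocytes lay with them. All 6 tested members of the complement list of 10 (median −2.19) and all 6 tested Fc receptor and signalling chain genes of 8 (median −2.11) were lower in the CD8 T sort, and 0 passed. Tyrobp, an adaptor that signals for many myeloid receptors, had 2, 39 and 63 reads in the CD8 T libraries against 237, 10 and 125 in the dendritic libraries (−2.38 ± 1.10). Cd14, a coreceptor for bacterial lipopolysaccharide, had 0, 30 and 10 reads in the CD8 T libraries and 84, 7 and 33 in the dendritic libraries (−2.72 ± 1.07). Cd14 was the 1 marker of 17 tested in the macrophage list whose CD8 T libraries all lay below the dendritic ones. Among all 1062 tested genes 14 (1.32%) did so. Among lysosomal proteases and their cofactors 14 of 17 tested were lower (median −1.45), with the cysteine protease gene Ctsb at −1.45 ± 1.03 and legumain, encoded by Lgmn, at −1.70 ± 1.04.

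Chemokine genes lay on both sides. Of 16 listed 10 were tested, 3 higher and 7 lower in the CD8 T sort, with a median of −1.30. Ccl5, secreted by activated T cells, had 203, 216 and 64 reads in the CD8 T libraries against 7, 0 and 160 in the dendritic libraries (3.88 ± 1.42, and 5.78 without the libraries numbered 3). Ccl7, which attracts monocytes, had 0, 0 and 26 reads in the CD8 T libraries and 96, 2 and 51 in the dendritic libraries (−3.08 ± 1.49). Cxcl2, which attracts neutrophils, had 0, 125 and 27 reads in the CD8 T libraries and 119, 19 and 74 in the dendritic libraries (−2.63 ± 1.30), and after normalisation every CD8 T library lay below every dendritic one.

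**Figure D4:**
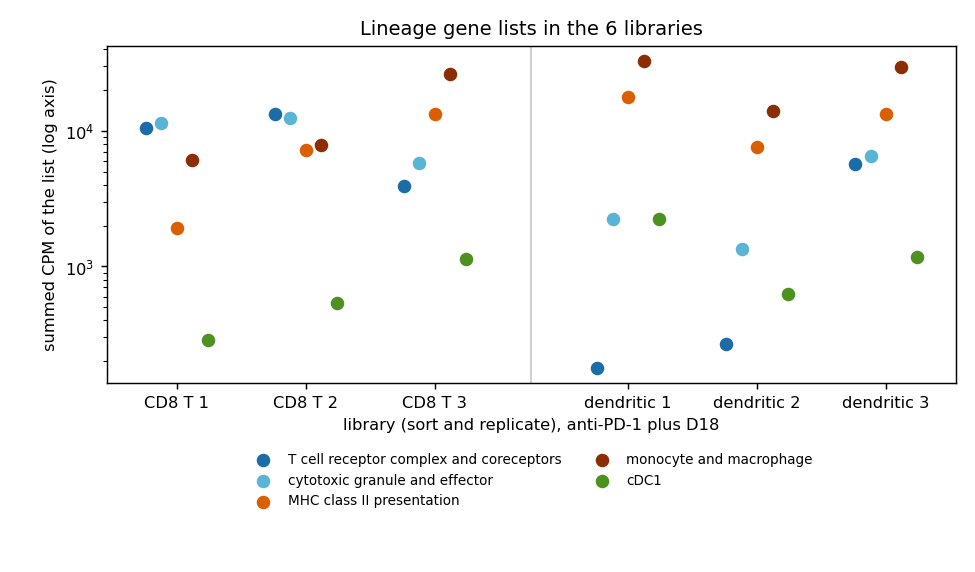
Summed CPM of 5 gene lists (log axis) in the CD8 T libraries (left of the line) and the dendritic libraries (right of it), 1 point per list and library. The T cell list stands at 178 and 269 CPM in dendritic replicates 1 and 2 and at 5700 CPM in replicate 3, above the 3911 CPM of CD8 T replicate 3.

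The 4 genes with the smallest p among those lower in the CD8 T sort, at a mean of at least 30 normalised reads in the higher sort, were no lineage genes. Gm10800, Gm10801, Gm21738 and Gm10718 are predicted gene models whose transcripts hold copies of the same repeat. Its unit is known from the major satellite DNA that surrounds mouse centromeres. The first 120 bases of each GENCODE transcript on GRCm38 are shown because 3 of these models were called once the libraries numbered 3 were left out. Capitals mark the 19 bases that are the longest run shared by all 4 printed stretches, which do not cover the whole transcripts.
Gm10800: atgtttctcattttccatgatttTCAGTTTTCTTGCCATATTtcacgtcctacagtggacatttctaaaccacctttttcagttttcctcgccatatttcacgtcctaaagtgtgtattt
Gm10801: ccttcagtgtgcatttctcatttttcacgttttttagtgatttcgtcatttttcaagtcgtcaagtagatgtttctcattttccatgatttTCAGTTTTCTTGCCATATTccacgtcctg
Gm21738: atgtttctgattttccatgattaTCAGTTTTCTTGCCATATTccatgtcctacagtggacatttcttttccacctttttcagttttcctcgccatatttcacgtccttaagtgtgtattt
Gm10718: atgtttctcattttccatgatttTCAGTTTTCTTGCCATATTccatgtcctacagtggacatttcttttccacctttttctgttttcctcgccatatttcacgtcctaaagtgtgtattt
They are annotated as protein coding at chr2:98666547-98667301 (minus strand), chr2:98662237-98664083 (plus), chr14:19415857-19418930 (minus) and chr9:3023547-3025218 (plus), in the order of the lines above. Of all 20-base words in each transcript, 49.8%, 47.4%, 50.7% and 58.6% occurred in at least 1 of the other 3, in the same order. Reads of these copies can be split between the models or lost in counting, so each value is uncertain and their sum is given as well.

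Gm10800 had 16, 6 and 370 reads in the CD8 T libraries and 1741, 491 and 722 in the dendritic libraries. Its log2 change of −5.03 ± 1.62 had an adjusted p of 0.655 by limma, and it became −7.60 (adjusted p = 0.00397 by limma) without the libraries numbered 3. Over the libraries numbered 1 and 2 the pooled reads were 162-fold higher in the dendritic sort, with a counting interval from 107 to 259. The 4 models together took 0.0412%, 0.00375% and 0.609% of the reads in the CD8 T libraries, against 1.25%, 6.06% and 0.581% in the dendritic libraries. The share was highest in dendritic replicate 2, the library of 11170 reads, and lowest in CD8 T replicate 2, the library of 266392 reads, and about equal in both libraries numbered 3. The part of depth in the result was not tested.

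Genes used by all cells and interferon-induced genes were also compared. Cytosolic ribosomal protein genes were higher in CD8 T in 29 of 30 members, with a median of 1.07, and their sum was 69989, 36330 and 30182 CPM in the CD8 T libraries against 19319, 14593 and 33592 CPM in the dendritic libraries. Without dendritic replicate 2 that median was 0.32. MHC class I genes were higher in all 13 tested members (median 0.94, and 0.15 without dendritic replicate 2), with the transactivator gene Nlrc5 at 1.84 ± 1.19 and B2m, the light chain of class I, at 0.89 ± 1.10. Mitochondrially encoded genes were lower in all 11 tested members (median −1.31), and their sum was 13865, 20811 and 56877 CPM in the CD8 T libraries against 102402, 34378 and 50787 CPM in the dendritic libraries. In glycolysis 10 of 11 were higher (median 0.71, near that of all genes), and the median was −0.12 without dendritic replicate 2. Interferon-gamma-induced GTPase genes had 5 of 8 higher and a median of 0.51, which was −0.22 without that library. Type I interferon-stimulated genes had 5 of 6 lower and a median of −0.38, which changed sign with the scaling (−0.51 to 0.08). No gene of these lists passed by limma.

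**Figure D5:**
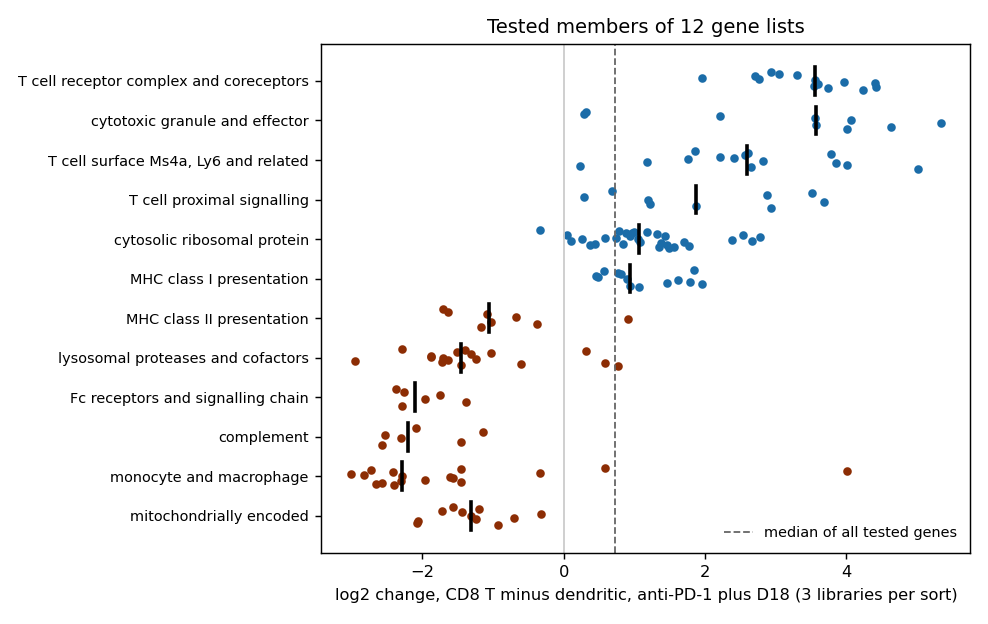
Each point is a tested member of a gene list, at its log2 change (CD8 T minus dendritic, 3 libraries per sort), with a black bar at the list's median and a dashed line at the median of all tested genes, 0.72. T cell lists have medians from 1.87 to 3.57 and phagocyte lists from −1.45 to −2.28, and ribosomal and class I genes lie near the dashed line.

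Markers of other cells differed in level between lists. The neutrophil list held 17 reads in dendritic replicate 2 and at most 6 in any other library. B cell and plasma cell genes summed to 71.7, 30.03 and 397 CPM in the CD8 T libraries and to 1243, 89.5 and 502 CPM in the dendritic libraries. The natural killer cell list, with reads for 10 of 12 members, summed to 555, 1685 and 1244 CPM in the CD8 T libraries and to 1275, 985 and 1087 CPM in the dendritic libraries. Most of these reads were of Gzma, which T cells also make, and of Tyrobp, which myeloid cells also make, while Ncr1 and Klra8 had 0 reads in all 6. Fibroblast, endothelial and epithelial lists each held at most 27 reads in a library. The part of these cells in the differences between the sorts was not tested.

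Whether the sorts differed in another way under anti-PD-1 alone was tested as an interaction over 12 libraries. It passed for 0 of 1266 genes (0%) by limma, with a smallest adjusted p of 0.970, and 11 genes had an unadjusted p under 0.05. limma-voom also called 0, with 53 genes at an unadjusted p under 0.05. Gzma had 17, 350 and 28 reads in D18 CD8 T libraries and 0, 0 and 44 in D18 dendritic libraries, against 0 reads in all 6 libraries of both sorts with anti-PD-1 alone. Its interaction was 4.08 ± 1.83 on the log2 scale (adjusted p = 0.970 by limma). Cd8a, with 58, 585 and 28 reads in CD8 T and 3, 0 and 87 in dendritic libraries under D18, had 52, 456 and 45 in CD8 T and 0, 0 and 71 in dendritic libraries under anti-PD-1 alone. The number 3 dendritic library thus held Cd8a reads in both treatments. Usp18, an interferon-induced protease gene, had 22, 55 and 13 reads in CD8 T and 12, 0 and 24 in dendritic libraries under D18. Under anti-PD-1 alone it had 25, 17 and 22 in CD8 T and 29, 26 and 40 in dendritic libraries, for an interaction of 3.15 ± 1.26 (adjusted p = 0.970 by limma). Summed reads of mt-Atp6, mt-Co2 and mt-Co3, which are mitochondrial, numbered 33 to 334 in each of the 6 D18 libraries, and 0 in replicates 1 and 2 of each sort under anti-PD-1 alone. In replicate 3 under anti-PD-1 alone they numbered 196 in the CD8 T library and 215 in the dendritic library. The labels name no batch, and the part of these differences between libraries in the interaction was not tested.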

How the data were processed

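Cells were sorted into lysis buffer and made into unstranded Smart-Seq2 libraries, per the labels' protocols. Reads were aligned with STAR 2.4.0 to mm10, counted with HTSeq 0.6.1 and processed with DESeq2, per the submitters' processing notes. The authors deposited log2 values of a variance-stabilised, size-factor-scaled read number, in 1 table per sort of 46983 genes. The transform was undone and each library divided by its smallest positive value, which gave whole reads for 100% of the values (tolerance 0.001). Since the deposited unit is log2, no count model was used. GENCODE on the same build gave a symbol and place for 46488 IDs (98.9%).

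The 6 libraries were scaled together by median-ratio size factors, from genes with reads in every library. Genes with a mean of at least 10 normalised reads were tested with limma 3.58.1 (R 4.3.3, trend and robust settings, two-sided) on log2(normalised reads + 1), with Benjamini-Hochberg adjustment over all genes tested and a threshold of 0.05. Log2 changes understate those of low genes. CPM scale a gene's reads to 1000000 per library. Fold limits use a floor of 3 reads over a group, and counting intervals are exact at 95%. The pooled totals of the libraries numbered 1 and 2, 322215 reads in CD8 T and 201811 in dendritic, came mostly from CD8 T replicate 2 and dendritic replicate 1. The interaction used 12 libraries in the same way. The code was also run on simulated counts, which support no result here. Tables were made with pandas 2.3.3, numpy 2.4.6 and scipy 1.17.1 in Python 3.11.15, and figures with matplotlib 3.10.9.

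The members and gene lists were chosen with earlier results of these data known. Genes named were the 15 with the smallest p per direction at a mean of at least 30 normalised reads in the higher sort (no gene was called), up to 4 per list by p, a set of 20 lineage genes and the 5 with the smallest interaction p. Other list members named were chosen after their values were seen. Alternatives were other scalings, voom, filters, pseudocounts, a replicate block, a fit with the CD4 T libraries, and omission of libraries. Omission of both libraries numbered 2 and the block without those numbered 3 were chosen after seeing the data.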

Additional observations from a re-analysis of the deposited data

How the results depend on the processing

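The limma count of 0 called genes over 3 libraries per sort also stood under other scalings, voom, a mean of at least 30, a pseudocount of 0.1, an added minimum log2 change of 1, and the fit of all 9 D18 libraries, and, with 2 libraries per sort, on omission of both libraries numbered 2. Without a filter on low values 3 of 17900 genes passed, 2 higher (Nkg7 and Ms4a4b) and 1 lower (Gm10800) in CD8 T. A mean of at least 100 gave 1 lower (Gm10800), and a pseudocount of 10 gave 2 lower (Gm10800 and Gm21738). Omission of both libraries numbered 3 gave 13 (10 higher, 3 lower). Leaving out each library in turn gave from 0 to 18 called, from 0 to 18 higher and from 0 to 3 lower, with 18 without dendritic replicate 3 and 3 without CD8 T replicate 3. A replicate block gave 16 (13 higher, 3 lower), and 12 (9 higher, 3 lower) without the libraries numbered 3. Deviations of same-numbered libraries from the mean of their sort had correlations of −0.19, −0.10 and −0.43. Alike libraries deviate in opposite directions where the means of the sorts differ. These correlations therefore cannot decide whether the numbers pair libraries. The interaction count was 0 under every alternative run. Omitting libraries in turn gave log2 changes from −1.90 to 0.046 for H2-Aa, −1.58 to 0.23 for Cd74, −1.10 to 0.45 for H2-Ab1 and −1.57 to 0.20 for Irf8. H2-Aa, Cd74 and H2-Ab1 turned positive without CD8 T replicate 1, and Cd74, H2-Ab1 and Irf8 without dendritic replicate 1. The cause was not tested. The other 1099 of 1105 values of 56 genes kept their direction. In dendritic replicate 2, with 11170 reads, a gene at 0 reads may lie at up to 269 CPM.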
